A study of Mus musculus with 6 samples.

Results

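The 41 genes described here encode proteins that bring fatty acids into muscle and oxidise them, from uptake at the cell surface to beta-oxidation in mitochondria, together with the lipases that release fatty acids from stored triglyceride and the lipid-sensing receptors PPARα and PPARδ. They were chosen by name, and all 41 were present among the 13226 genes of the deposited count table. RNA-sequencing was performed on whole tibialis anterior (TA) muscles of male C57BL/6 mice aged 8 weeks, collected 7 days after intramuscular injection of a vector based on adeno-associated virus serotype 6 (AAV6), with 3 muscles in each of 2 groups. The Yap-shRNA group received AAV6:Yap-shRNA, a short hairpin RNA directed at mouse Yap, the transcriptional co-activator at the end of the Hippo pathway. Control muscles are called empty vector in their titles and AAV6:LacZ-shRNA in their vector field, and are called control here. The shRNA was cloned into a plasmid that carries eGFP behind a CMV promoter. Control and treated muscles came from opposite legs of 3 animals, but the labels do not say which sample numbers share an animal, so the tests below measure the spread between muscles.

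Long-chain fatty acids are released from circulating lipoproteins by lipoprotein lipase, enter the fibre with the help of membrane proteins such as CD36, and are bound in the cytosol by FABP3. They are activated to acyl-CoA, passed to carnitine by CPT1, carried through the inner mitochondrial membrane and returned to CoA by CPT2. Repeated rounds of dehydrogenation, hydration, a second oxidation and thiolysis then release acetyl-CoA, and the electrons of the first step pass through electron transfer flavoprotein to ubiquinone. Malonyl-CoA inhibits CPT1, and PPARα and PPARδ switch on many genes of the pathway. In skeletal muscle the pathway is most active in oxidative fibres, during fasting and during sustained exercise, and the TA of the mouse is built mainly of fast fibres.

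Yap1, the targeted gene, had 915, 781 and 833 counts in the controls and 381, 311 and 495 with Yap-shRNA. All 3 treated muscles were below all 3 controls, at 46.5% of the control level, and the log2 fold change was -1.10 with a standard error of 0.16 (adjusted p = 0.436, edgeR quasi-likelihood test; exact two-sided permutation test p = 0.10, the smallest that 3 against 3 allows). Libraries held 11987167 to 12710393 counts and no pair agreed within sampling noise. Summed markers of skeletal muscle fibres took 132615 to 161123 CPM (counts scaled to library size) in each muscle, against 449 to 493 CPM for endothelial markers and 100 to 238 CPM for macrophage markers, as the tissue label would have it. In whole muscle, fewer cells of a type and less RNA per cell cannot be told apart.

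None of the 41 genes passed the test for a difference between Yap-shRNA and control muscles. At an adjusted p under 0.05 (edgeR quasi-likelihood test with Benjamini-Hochberg adjustment over all genes) 0 of 41 passed, and so did 0 of the 13226 genes (0%). DESeq2, the likelihood ratio test of edgeR and limma-voom also called 0 of 41, against 0.0378%, 0.0378% and 0% of all genes. At an unadjusted p under 0.05 there were again 0 of 41, against 1.75% of all genes, and the lowest unadjusted p among the 41 was 0.124, for Acad10. For 0 of 41 did the 3 Yap-shRNA muscles lie all above or all below the 3 control muscles, a separation seen for 5.27% of all genes. Fitted differences were higher with Yap-shRNA for 26 genes and lower for 15, where 48.9% of all genes were higher. Their median log2 fold change was 0.017 beside -0.0029 for all genes, and single values ran from -0.39 for Acad10 to 0.15 for Cpt1b.

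The 95% intervals of the log2 fold changes show which differences are compatible with the values of each gene. They are not adjusted for the number of genes tested, so they do not show what the adjusted test could miss. Yap1, with an interval from -1.47 to -0.74, was itself not called (adjusted p = 0.436, edgeR quasi-likelihood test). The intervals lay within 0.5 of zero for 32 of the 41 genes and within 1 of zero for 39. The exceptions at the wider limit were Cpt1a, with an interval from -1.02 to 0.67, and Acot2, with an interval from -0.97 to 1.17. The narrowest standard error was 0.10, for Acad9, the widest 0.48, for Acot2, and the median 0.15. For Cpt1a the interval reached down to 0.492 of the control level, and for Acot2 it reached up to 2.25 times that level, so changes of that size lay within the error.

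**Figure D1:**
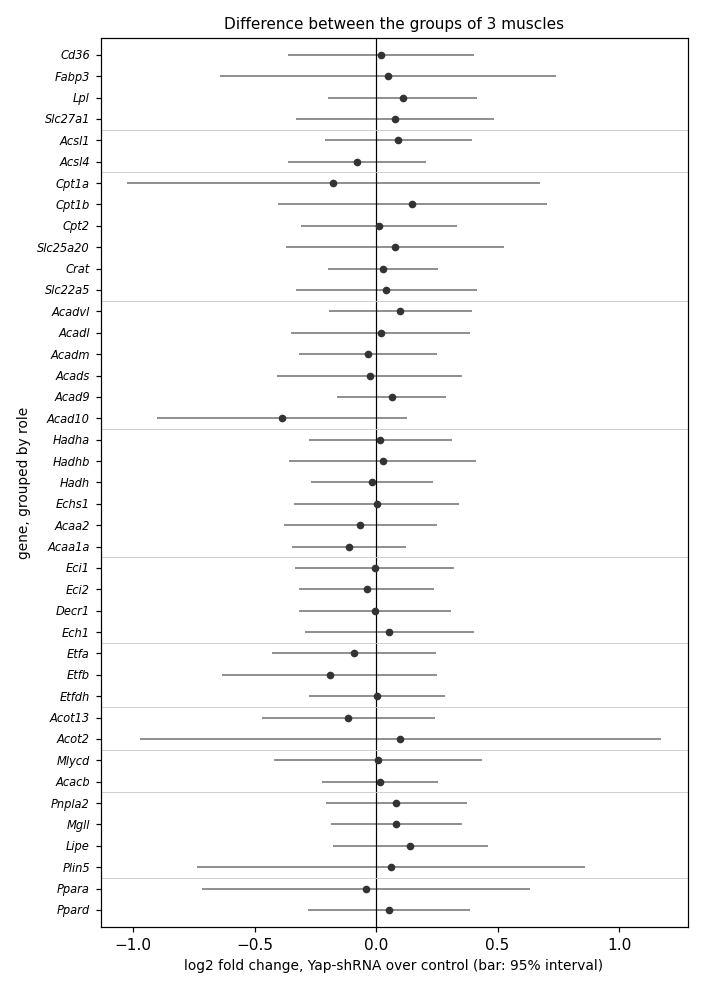
Log2 fold change of each of the 41 genes in Yap-shRNA over control muscles (points) with its 95% interval (bars), from the edgeR fit of 3 muscles per group; genes are ordered by role from uptake (top) to the PPAR receptors (bottom). Every interval crosses zero, and the widest belong to Acot2 and Cpt1a.

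All 4 genes of uptake and cytosolic binding had fitted values slightly above control, and together they stood at 871 ± 40.5 CPM in control and 912 ± 186 CPM in Yap-shRNA muscles (SD, n = 3). Cd36, the fatty acid translocase, had 4934, 3776 and 3852 counts in control and 5217, 4163 and 3422 in Yap-shRNA muscles. The treated group held both the highest and the lowest of the 6 values, and the log2 fold change was 0.020 (SE 0.17). Lpl, the lipase that frees fatty acids from lipoproteins in the capillary bed, had 3906, 4863 and 4645 counts in control and 5075, 5398 and 4231 in Yap-shRNA muscles. Its groups overlapped, and the log2 fold change was 0.11 (SE 0.14). Slc27a1, the transport protein FATP1, had 1323, 1232 and 996 counts in control and 1516, 1321 and 941 in Yap-shRNA muscles, with the treated group again spanning the controls (log2 fold change 0.077, SE 0.18). Fabp3, the heart and muscle fatty acid binding protein, varied most in this role. It reached 1030, 1033 and 631 counts in the control group and 1296, 982 and 525 in the Yap-shRNA group. Control 3 and Yap-shRNA 3 were the lowest of their groups, the highest treated muscle stood 2.60-fold above the lowest, and the log2 fold change between groups was 0.049 (SE 0.31).

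Activation to acyl-CoA was represented by a pair of synthetases. Acsl1, the main long-chain acyl-CoA synthetase of muscle, had 4120, 3811 and 3316 counts in control and 4363, 4434 and 3323 in Yap-shRNA muscles. Acsl4, a synthetase that prefers arachidonic acid, had 445, 329 and 400 counts in control and 375, 340 and 406 in Yap-shRNA muscles. The groups overlapped for both, with log2 fold changes of 0.092 (SE 0.13) and -0.079 (SE 0.13). Per kilobase of annotated exon, the level of Acsl1 was 4.22 to 6.72 times that of Acsl4 in every muscle.

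Of the 6 genes of the carnitine shuttle, 5 had fitted values above control and Cpt1a was below. Cpt1a, the CPT1 isoform best known from liver, had 289, 128 and 105 counts in the controls and 217, 135 and 108 with Yap-shRNA. Control 1 and Yap-shRNA 1 each stood well above the other two muscles of their group, and this spread within groups exceeded the difference between them (log2 fold change -0.18, SE 0.38). Cpt1b, the isoform typical of muscle, had 143, 77 and 102 counts in control and 149, 114 and 95 in Yap-shRNA muscles, with a log2 fold change of 0.15 (SE 0.25) and overlapping groups. Slc25a20, which exchanges acylcarnitine for carnitine across the inner membrane, had 1188, 1262 and 866 counts in control and 1379, 1295 and 861 in Yap-shRNA muscles. The number 3 muscle was the lowest of both groups, and the means differed by a log2 fold change of 0.077 (SE 0.20). Crat, carnitine acetyltransferase, had the highest CPM of all 41 genes and was among the steadiest, with 8614, 8851 and 8900 counts in control and 9547, 9246 and 8458 in Yap-shRNA muscles (log2 fold change 0.030, SE 0.10). Cpt2, which returns the acyl group to CoA in the matrix, and Slc22a5, the plasma membrane carnitine transporter, differed by 0.012 (SE 0.14) and 0.043 (SE 0.16) on the log2 scale.

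The 6 acyl-CoA dehydrogenases were split, with 3 above and 3 below control, and their sum was 847 ± 64.8 CPM in control and 854 ± 154 CPM in Yap-shRNA muscles (SD, n = 3). These flavoenzymes catalyse the first step of each round, and they differ in the chain length they accept. Acadvl, the very long-chain enzyme, had 1934, 1781 and 1795 counts in control and 2009, 2373 and 1603 in Yap-shRNA muscles. The 3 controls were nearly equal while the treated muscles lay on both sides of them (log2 fold change 0.099, SE 0.13). Acadl, the long-chain enzyme, had 3891, 4063 and 3413 counts in control and 4481, 4215 and 2948 in Yap-shRNA muscles, again with the treated group spanning the controls (log2 fold change 0.019, SE 0.16). Acadm, the medium-chain enzyme, Acads, the short-chain enzyme, and Acad9, also an assembly factor of respiratory complex I, had log2 fold changes of -0.032 (SE 0.13), -0.026 (SE 0.17) and 0.064 (SE 0.10). Acad10, a little-studied relative, was one of the least abundant of the 41 genes, with 42, 45 and 39 counts in control and 29, 42 and 27 in Yap-shRNA muscles. Yap-shRNA 1 and Yap-shRNA 3 were below all controls and Yap-shRNA 2 was among them. Its log2 fold change of -0.39 (SE 0.23) was the furthest from zero of the 41 and had an adjusted p of 1.00 (edgeR quasi-likelihood test).

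The genes of hydration, the next oxidation and thiolysis were also split evenly, 3 above and 3 below control. Hadha and Hadhb encode the α and β subunits of the trifunctional protein, which carries out these last 3 steps on long chains. The genes lie head to head on chromosome 5 of GRCm38, with Hadha on the minus strand ending at 30155162 and Hadhb on the plus strand starting at 30155248, so that 85 bases separate them. Hadha had 5031, 5044 and 4649 counts in control and 5601, 5321 and 4149 in Yap-shRNA muscles, and Hadhb had 450, 493 and 487 counts in control and 584, 523 and 367 in Yap-shRNA muscles. Both were highest in Yap-shRNA 1 and lowest in Yap-shRNA 3, with log2 fold changes of 0.017 (SE 0.13) and 0.027 (SE 0.17). Acaa2, the mitochondrial thiolase, had 2394, 2706 and 2421 counts in control and 2765, 2478 and 2036 in Yap-shRNA muscles, and Acaa1a, a peroxisomal thiolase, had 460, 488 and 509 counts in control and 464, 481 and 421 in Yap-shRNA muscles. Their groups overlapped, at log2 fold changes of -0.064 (SE 0.14) and -0.11 (SE 0.10). Hadh and Echs1, which act on medium and short chains in the matrix, differed by -0.017 (SE 0.11) and 0.0034 (SE 0.15).

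Among the auxiliary enzymes for double bonds 1 of 4 genes was above control, and among those of electron transfer 1 of 3. Eci1, Eci2, Decr1 and Ech1 shift or remove the double bonds of unsaturated fatty acids so that oxidation can proceed. Ech1, the most abundant of them by CPM, had 2980, 3130 and 2942 counts in control and 3830, 3074 and 2586 in Yap-shRNA muscles, and Eci2 had 738, 708 and 654 counts in control and 770, 706 and 590 in Yap-shRNA muscles. In both genes the treated muscles reached further up and further down than the controls (log2 fold changes 0.055, SE 0.15, and -0.039, SE 0.12). Eci1 and Decr1 differed by -0.0054 (SE 0.15) and -0.0038 (SE 0.14). Etfa and Etfb form electron transfer flavoprotein and Etfdh passes its electrons to ubiquinone. Etfb had 572, 989 and 714 counts in control and 709, 695 and 625 in Yap-shRNA muscles, so the control group held both the highest and the lowest values (log2 fold change -0.19, SE 0.20). Etfa had 1629, 2146 and 1812 counts in control and 1883, 1954 and 1493 in Yap-shRNA muscles, and Etfdh had 1973, 1852 and 1740 in control and 2044, 2036 and 1565 in Yap-shRNA muscles. Both overlapped between groups, at log2 fold changes of -0.091 (SE 0.15) and 0.0044 (SE 0.12).

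The thioesterases and the enzymes of malonyl-CoA varied between muscles more than between groups. Acot2, a mitochondrial thioesterase that frees fatty acids from CoA, was the most variable gene of the pathway, with 215, 134 and 77 counts in the control group and 265, 114 and 74 in Yap-shRNA muscles. The highest of the 6 muscles stood 3.77-fold above the lowest after scaling, while the group means were 11.4 ± 5.21 and 12.3 ± 8.72 CPM (SD, n = 3) and the log2 fold change was 0.099 (SE 0.48). Acot13, a small thioesterase linked to mitochondria, had 1042, 1555 and 1377 counts in control and 1256, 1297 and 1183 in Yap-shRNA muscles, with the treated group inside the range of the controls (log2 fold change -0.11, SE 0.16). Acacb, the acetyl-CoA carboxylase that makes malonyl-CoA near CPT1, had 3650, 3809 and 3299 counts in control and 3541, 4140 and 3360 in Yap-shRNA muscles. Mlycd, the decarboxylase that removes malonyl-CoA, had 1335, 1539 and 1038 counts in control and 1484, 1498 and 999 in Yap-shRNA muscles. The groups overlapped for both, with log2 fold changes of 0.016 (SE 0.11) and 0.0064 (SE 0.19).

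The 4 genes of triglyceride breakdown all had fitted values slightly above control, with a sum of 438 ± 53.7 CPM in control and 464 ± 68.6 CPM in Yap-shRNA muscles (SD, n = 3). Pnpla2, the lipase ATGL that starts triglyceride breakdown, had 3918, 4377 and 3605 counts in control and 4693, 4307 and 3766 in Yap-shRNA muscles, and Lipe, hormone-sensitive lipase, had 317, 249 and 209 in control and 294, 278 and 290 in Yap-shRNA muscles. Mgll, monoglyceride lipase, had 793, 714 and 690 counts in control and 848, 689 and 812 in Yap-shRNA muscles. All 3 overlapped between groups, and their log2 fold changes were 0.084 (SE 0.13), 0.14 (SE 0.14) and 0.084 (SE 0.12). Plin5, a lipid droplet protein that tethers droplets to mitochondria, had 367, 615 and 308 counts in control and 605, 525 and 235 in Yap-shRNA muscles. Control 2 stood above the other controls and Yap-shRNA 3 below every other muscle, and the log2 fold change was 0.061 (SE 0.35). Ppard had 377, 460 and 435 counts in control and 376, 560 and 412 in Yap-shRNA muscles, and Ppara was near the limit of the table at 27, 18 and 22 counts in control and 15, 26 and 25 in Yap-shRNA muscles. The groups overlapped for both receptors (log2 fold changes 0.055, SE 0.15, and -0.043, SE 0.30).

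**Figure D2:**
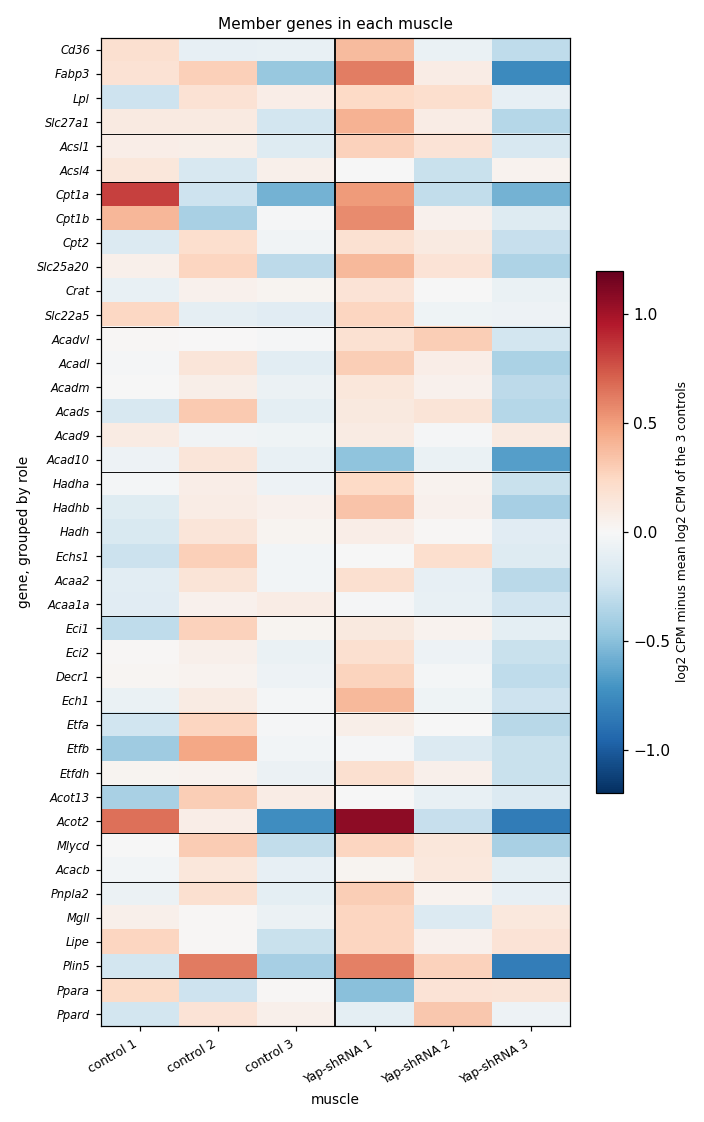
Level of each of the 41 genes (rows, ordered by role) in each of the 6 muscles (columns), as log2 CPM minus the mean log2 CPM of the 3 controls; red is above and blue below that mean. The column of Yap-shRNA 1 is mostly red and that of Yap-shRNA 3 mostly blue, while the columns of controls are paler apart from Cpt1a, Fabp3, Acot2, Plin5 and a few others.

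Most of the 41 genes were spread in a like way between muscles of the same group. Yap-shRNA 3 was the lowest muscle of its group for 35 of 41 genes (85.4%, against 33.9% of all genes) and Yap-shRNA 1 was the highest for 32 (78.0%, against 32.1%). In the control group, control 2 was the highest muscle for 28 (68.3%, against 35.6%) and control 3 the lowest for 22 (53.7%, against 26.4%). The median gene of the 41 was 0.46 higher on the log2 scale in Yap-shRNA 1 than in Yap-shRNA 3, and 37 of 41 had this direction (90.2%, against 49.7% of all genes). Acsl4, Acad9, Ppara and Ppard were the 4 that did not. Control 2 was above control 3 for 36 genes (87.8%, against 51.1% of all genes), with a median difference of 0.19 over all 41. Control 1 was above control 3 for 26 genes (63.4%, against 50.7% of all genes), with a median difference of 0.071 over all 41. These orders were noticed in the data and carry no test.

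Relative to the mean of the controls, the median gene of the 41 stood at -0.018, 0.097 and -0.061 in the control muscles and at 0.19, 0.044 and -0.27 in the Yap-shRNA muscles (log2 scale). The treated group thus held the highest and the lowest muscle, and its middle muscle lay among the controls. Summed over the 41 genes, the level was 5619, 6356 and 5595 CPM in the control group and 6793, 6042 and 5016 CPM in Yap-shRNA muscles, for means of 5856 ± 432 and 5950 ± 892 CPM (SD, n = 3). The direction of the median changed with the muscles included. Without Yap-shRNA 1, 33 of the 41 genes were lower than control with a median log2 fold change of -0.11, and without Yap-shRNA 3, 35 were higher with a median of 0.12. Leaving out another muscle gave 21 lower genes and a median of -0.0014 for control 1, 9 and 0.074 for control 2, 28 and -0.032 for control 3, and 22 and -0.0097 for Yap-shRNA 2. In none of these 6 fits did any of the 41 pass an adjusted p of 0.05 (edgeR).

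Control 3 was the lowest of its group for 53.7% of the 41 genes and Yap-shRNA 3 for 85.4%. These sets were bound to share many genes, so their overlap is no separate sign of a link between the groups. Muscle number 3 was the lowest of both groups for 19 of the 41 genes (46.3%), compared with 8.6% of all genes. They came from nearly every step: Fabp3 and Slc27a1 of uptake, Acsl1, Cpt1a, Slc25a20 and Slc22a5 of activation and the shuttle, Acadvl, Acadl, Acadm, Acad10, Hadha, Eci2, Decr1 and Etfdh of the oxidation itself, Acot2, the pair Mlycd and Acacb, and Pnpla2 and Plin5 of triglyceride breakdown. The full order of the 3 numbers was alike in both groups for 7 of 41 genes (17.1%), near the 18.7% of all genes. Over the 6 muscles the ratio of the highest to the lowest level ran from 1.12 for Acad9 to 3.77 for Acot2, with a median of 1.47 beside 1.43 for all genes.

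**Figure D3:**
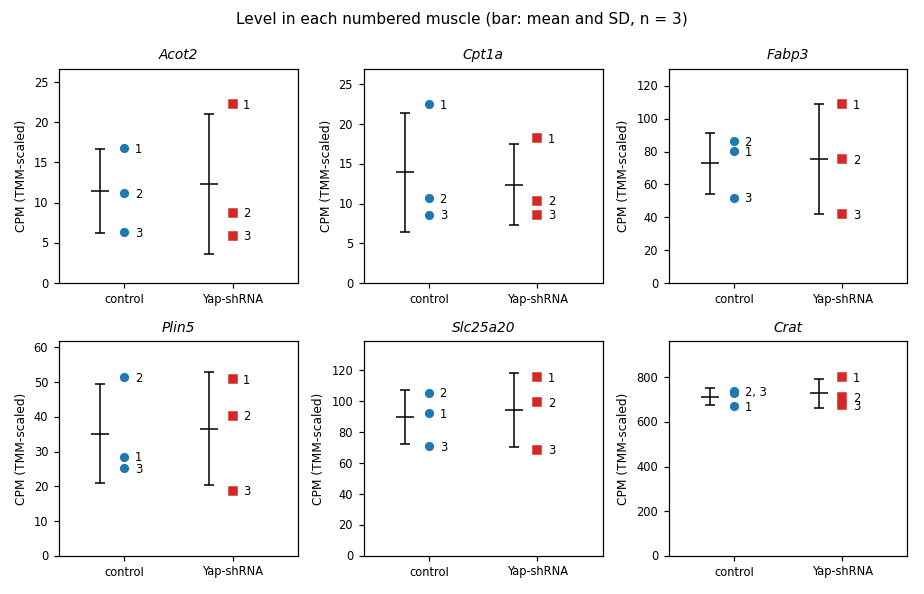
Level of Acot2, Cpt1a, Fabp3, Plin5, Slc25a20 and Crat in each muscle, in TMM-scaled CPM on linear axes from zero; points are muscles marked with their sample number, and bars give mean and SD of 3 muscles per group. Muscle 3 is the lowest of both groups for every gene shown but Crat, whose levels differ little.

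Markers of other cells were measured beside this pattern. Summed muscle fibre markers were at 156247 CPM in Yap-shRNA 3 and 143704 CPM in Yap-shRNA 1, both inside the range of the controls (137601 to 161123 CPM). Yap-shRNA 2, at 132615 CPM, was below that range. Of 9 adipocyte markers 8 were measured, none at 0, and their sum ran from 2486 to 3612 CPM in control and from 1864 to 3049 CPM in Yap-shRNA muscles. The mean sum was lower with Yap-shRNA (2566 against 2929 CPM) while the median of the 8 log2 fold changes was 1.03. Without Car3, which muscle also expresses, the sums were 263, 272 and 242 CPM in control and 262, 235 and 300 CPM in Yap-shRNA muscles. Most of each of these sums was Fabp4, at 236, 258 and 221 CPM in control and 245, 218 and 205 CPM in Yap-shRNA muscles. The adipocyte genes Adipoq (61, 24 and 35 counts in control, 19, 41 and 205 in Yap-shRNA muscles) and Cfd (180, 96 and 153, against 128, 122 and 628) were highest in Yap-shRNA 3, although the 8 had 0 genes at an unadjusted p under 0.05. Tendon and fibroblast markers, 8 of 8 measured, summed to 2124, 995 and 826 CPM in control and to 915, 1001 and 2238 CPM in Yap-shRNA muscles, with control 1 and Yap-shRNA 3 the high ones. Slow fibre markers, which accompany oxidative metabolism, summed to 109 to 171 CPM and were highest in Yap-shRNA 3. The part of these cells in the order of the muscles was not tested.

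Of the genes lowest in muscle number 3 of both groups, 3 are shown with sequence upstream of their RefSeq start, because a half-site of the nuclear receptors or a TEAD motif lay there. They were picked after the values were seen, and Slc27a1, Acsl1, Acadm and Acadvl, which meet the same description, are not printed. RefSeq promoter windows of 300 bases (250 before and 50 after a start, build GRCm38.p6) were found for 34 of the 41 genes, 40 windows in all. Capitals mark the half-site AGGTCA, or TGACCT on the other strand, which nuclear receptors such as the PPARs bind in pairs, and GGAATG, or CATTCC on the other strand, the core bound by the TEAD factors that partner Yap.
Cpt1a: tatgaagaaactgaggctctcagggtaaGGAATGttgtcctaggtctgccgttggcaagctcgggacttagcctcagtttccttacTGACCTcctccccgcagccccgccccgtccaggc
Slc25a20: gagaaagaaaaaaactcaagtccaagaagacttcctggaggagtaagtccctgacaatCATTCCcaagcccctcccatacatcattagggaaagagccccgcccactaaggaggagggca
Plin5: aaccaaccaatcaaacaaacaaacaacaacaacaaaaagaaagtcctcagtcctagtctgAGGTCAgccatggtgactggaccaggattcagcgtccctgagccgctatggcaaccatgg
The Cpt1a stretch is chr19:3323121-3323240 on the plus strand, inside the span of the gene in GENCODE but outside its exons, with the TEAD core 152 and the half-site 94 bases before the start. The Slc25a20 stretch is chr9:108661936-108662055 on the plus strand, upstream of the gene, with the TEAD core 142 bases before the start. The Plin5 stretch is chr17:56117659-56117778 on the minus strand, upstream of the gene, with the half-site 170 bases before the start.

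Over the whole pathway the motifs were about as frequent as in other genes. The half-site was present in 8 of the 40 windows (20.0%), from Acacb, Acadm, Acadvl, Cd36, Cpt1a, Echs1 and Plin5, against 16.3% of all 32851 windows. Its direct repeat spaced by 1 base, AGGTCANAGGTCA, was in 0 of 40 windows and in 13 of all windows (0.0396%). The TEAD core was in 5 of 40 windows (12.5%), from Acsl1, Cpt1a, Etfb, Slc25a20 and Slc27a1, against 14.7% of all windows. Both strands were searched, and a match is only a match of letters.

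Compared per kilobase of exon, the genes spanned more than 2 orders of magnitude. Acadl was the highest at 154 CPM per kilobase over the 6 muscles, followed by Acot13 (140), Crat (134) and Acaa2 (131). The ranges of these 4 over the muscles overlapped, so their order is not firm. Ppara (0.46) and Acad10 (0.50) were the lowest, and they too overlapped. Cpt1a (1.72) and Cpt1b (2.71) were close to each other, and within each muscle the level of Cpt1a was 0.45 to 0.89 of that of Cpt1b. Hadha stood 7.21 to 8.54 times above Hadhb per kilobase, and Etfa 1.38 to 1.81 times above Etfb, although the proteins of each pair work in a complex.

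**Figure D4:**
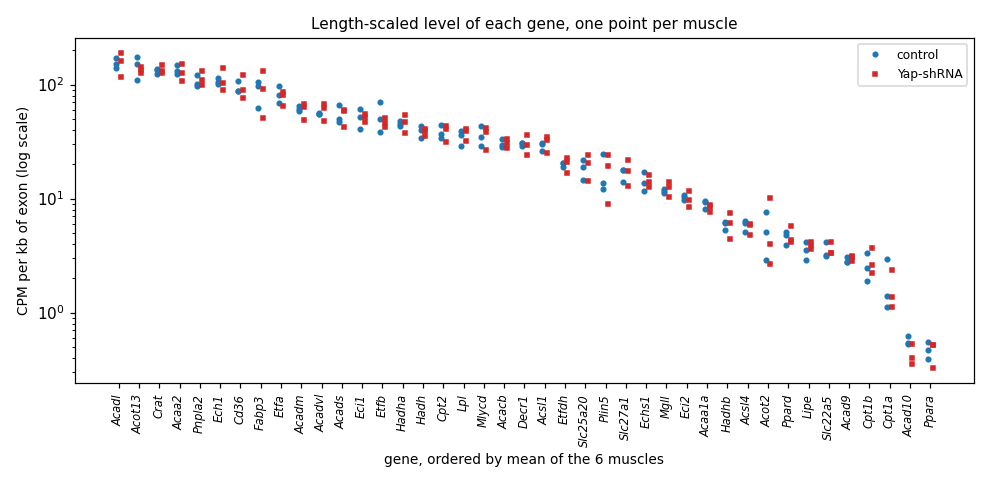
Level of each of the 41 genes in CPM per kilobase of exon (log axis), ordered by the mean of the 6 muscles; each point is a muscle, control or Yap-shRNA. Levels run from 154 for Acadl to 0.46 for Ppara, and the 2 groups overlap for every gene.

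Some of these levels are uncertain because of how reads can be assigned. The annotation (GENCODE M21, GRCm38) places Gm44502, a protein-coding model that spans Cpt1b and its neighbour Chkb (chr15:89416405-89429696, minus strand), over 81.4% of the exon bases of Cpt1b, and 78.6% of the 50-base words of Cpt1b transcripts also occur in other genes. Likewise Gm45233 covers 58.2% of the exon bases of Etfb, and Dvl2, on the opposite strand, 42.9% of those of Acadvl. Reads in such overlaps may have been left out or divided, so the low levels of Cpt1b and Etfb next to their partners are uncertain. Shared 50-base words were also frequent in Fabp3 (37.3%), Acot2 (27.7%, paralog Acot1), Slc22a5 (26.3%, paralog Slc22a21) and Hadhb (19.7%), and 14 of the 41 genes had none. The pseudogene Gm13910, a copy of Hadhb, had 963, 705 and 851 counts in control and 998, 969 and 767 in Yap-shRNA muscles, which is 64.4% of the sum of both rows. With these counts added, Hadhb had a log2 fold change of 0.078 (SE 0.14). The low level of Hadhb next to Hadha is therefore uncertain too. Fabp3-ps1 had 744, 703 and 436 counts in control and 852, 689 and 380 in Yap-shRNA muscles, following Fabp3 from muscle to muscle, and the sum of both gave 0.038 (SE 0.30).

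Neighbouring pathways also had 0 genes of any list past an adjusted p of 0.05 (edgeR). Peroxisomal oxidation, which shortens very long chains, had 17 of 19 listed genes measured, 4 of them higher, a median log2 fold change of -0.030 and 0 genes at an unadjusted p under 0.05; Decr2 (-0.25, SE 0.19) and Abcd3 (-0.12, SE 0.11) had the smallest p. Genes of triglyceride synthesis and lipid droplets (19 of 21 measured, 10 higher, median 0.0004) also had 0, with Dgat1 at -0.22 (SE 0.18) and Agpat2 at 0.17 (SE 0.17). Other acyl-CoA enzymes and transporters (33 of 35 measured, 15 higher, median -0.0019) had 0, and Acsf2 stood at 0.38 (SE 0.25). The 3 treated muscles were above the controls for 1 of the 33, Acsl5, a synthetase (0.24, SE 0.15), where 5.27% of all genes did not overlap. Its margin was 8.81 CPM in Yap-shRNA 1 against 8.80 CPM in control 1. Ketone body use (7 of 7 measured, 1 higher, median -0.052) had 0, with Slc16a1, a monocarboxylate transporter, at -0.12 (SE 0.14).

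In the list of fatty acid synthesis and desaturation (15 of 15 measured, 11 higher, median 0.13) the genes at an unadjusted p under 0.05 were Thrsp, a lipogenic nuclear protein, with 268, 237 and 260 counts in control and 188, 219 and 213 in Yap-shRNA muscles, and Srebf2, the sterol-responsive factor, with 259, 208 and 231 in control and 253, 320 and 352 in Yap-shRNA muscles. The groups did not overlap for either after scaling, at log2 fold changes of -0.32 (SE 0.10) and 0.39 (SE 0.13), and both had an adjusted p of 1.00 (edgeR quasi-likelihood test). Of the 15 genes of synthesis and desaturation, the treated muscles were all above the controls for 2 and all below for 1. Over all genes 5.27% did not overlap. Coregulators and targets of the PPAR and ERR receptors had 23 of 24 listed genes measured, 10 of them higher, with a median log2 fold change of -0.017.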

How the data were processed

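Polyadenylated RNA of 6 whole TA muscles was sequenced, and the counts of reads on each gene were deposited by the authors as they were, not normalised. The submitters' processing notes name bcl2fastq 2.20.0.422 and the build GRCm38, while the aligner, counter and strand setting are not given in the sources used here. No gene of the table had fewer than 60 counts over the 6 libraries, so rare transcripts had been removed before. Counts were scaled by TMM and fitted over all 13226 genes with the quasi-likelihood test of edgeR 4.0.16 in R 4.3.3, with group as the only term. Genes were called at an adjusted p (Benjamini-Hochberg) under 0.05. The error of each log2 fold change was derived from the fold change and the F value of its test. CPM are counts divided by the TMM-scaled library size, and levels per kilobase used the union of exons in GENCODE M21. The common biological coefficient of variation was 15.67%. Counting error was not compared with the spread between muscles gene by gene, and it weighs most on the rarest transcripts.

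The 41 genes, the pathway and marker lists and the alternatives were chosen with earlier results of these data known. Values per muscle are given for Yap1 and, within each role, for the 2 genes with the smallest p and the gene with the highest CPM; from every other list the 2 genes with the smallest p are named, apart from a few that are not reported here. Cd36, Fabp3, Slc25a20, Plin5, Hadhb, Pdk4, Ucp3, Angptl4, Fasn, Adipoq and Fabp4, the sums without Car3 and the sums with pseudogene rows were added after values were seen. Alternatives were DESeq2 1.42.0, limma-voom 3.58.1, the likelihood ratio test, other scalings and filters, a replicate block and each muscle left out. The fit was tested on simulated data. Protein sequences were not analysed here.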

Additional observations from a re-analysis of the deposited data

How the results depend on the processing

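The count of 0 called genes among the 41 was the same under every alternative run: DESeq2, the likelihood ratio test, limma-voom, relative log expression and upper-quartile factors, 2 count filters and each muscle left out. Their median log2 fold change ran from 0.00080 with limma-voom to 0.020 with DESeq2 on all muscles, and from -0.11 without Yap-shRNA 1 to 0.12 without Yap-shRNA 3. Yap1 passed the threshold with DESeq2 (-1.10, adjusted p = 5.85e-07) and with the likelihood ratio test of edgeR (-1.10, adjusted p = 2.22e-06), and ran from -1.29 to -0.93 with 1 muscle left out. Over all genes those tools called 5 genes each, and 1 gene was called without Yap-shRNA 3. Without control 1, 2 of the 41 genes, Etfb and Acot13, had an unadjusted p under 0.05 (edgeR), the only such cases among the 41. In that fit 957 of all 13226 genes did so, which is a larger share. With limma-voom the sign turned for Cd36 (-0.0018), Fabp3 (-0.022), Acadl (-0.0036), Hadhb (-0.0014), Eci1 (0.011), Etfdh (-0.0071) and Acot2 (-0.037); the cause was not tested. Of the 41 genes, Acad9, Acad10, Acaa1a and Lipe kept their sign whichever muscle was left out. For the others the log2 fold change ran as follows, and the cause was not tested. The ranges were Cd36 -0.19 to 0.16, Fabp3 -0.31 to 0.34, Lpl -0.0049 to 0.21, Slc27a1 -0.12 to 0.25, Acsl1 -0.0050 to 0.22, Acsl4 -0.17 to 0.011, Cpt1a -0.56 to 0.36, Cpt1b -0.084 to 0.37, Cpt2 -0.078 to 0.14 and Slc25a20 -0.094 to 0.26. They were further Crat -0.043 to 0.082, Slc22a5 -0.069 to 0.18, Acadvl -0.0072 to 0.24, Acadl -0.14 to 0.19, Acadm -0.12 to 0.093, Acads -0.12 to 0.15, Hadha -0.11 to 0.14, Hadhb -0.16 to 0.20, Hadh -0.10 to 0.060 and Echs1 -0.12 to 0.16. They were also Acaa2 -0.21 to 0.051, Eci1 -0.14 to 0.14, Eci2 -0.16 to 0.065, Decr1 -0.16 to 0.13, Ech1 -0.15 to 0.19, Etfa -0.20 to 0.048, Etfb -0.38 to 0.073, Etfdh -0.10 to 0.12, Acot13 -0.28 to 0.040 and Acot2 -0.64 to 0.48. The last were Mlycd -0.13 to 0.18, Acacb -0.043 to 0.085, Pnpla2 -0.030 to 0.19, Mgll -0.013 to 0.20, Plin5 -0.25 to 0.44, Ppara -0.16 to 0.14 and Ppard -0.10 to 0.14. Among the other genes named, signs turned for Slc16a1 -0.21 to 0.037, Cfd -0.20 to 1.40, Cdh5 -0.048 to 0.16, Pdgfra -0.10 to 0.41, Col1a1 -0.47 to 0.77, Pdk4 -0.98 to 1.18, Ucp3 -0.61 to 0.51, Angptl4 -1.05 to 1.70 and Adipoq -0.43 to 1.59. Ucp3 also turned with limma-voom (-0.045) and with upper-quartile factors (-0.00039).

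In the fit with a replicate block, in which muscles of equal number were paired, 23 of the 41 genes were higher and 18 lower with a median of 0.0041. The sign turned for Cd36 (-0.0014), Fabp3 (-0.015), Acadl (-0.0032), Eci1 (0.0091), Etfdh (-0.0065) and, outside the 41, Ucp3 (-0.043). The standard error fell for 35 of the 41 genes and rose for 6, and the same count was not made over all genes. It fell from 0.48 to 0.18 for Acot2, from 0.38 to 0.14 for Cpt1a and from 0.31 to 0.15 for Fabp3. Each muscle's deviation from its group mean was set against that of the muscle with the same number, which over all genes gave correlations of -0.065, 0.20 and -0.32, so the numbers were not taken to pair the muscles; over the 41 genes they were 0.50, 0.48 and 0.71. Muscles of unequal number gave correlations from -0.36 to 0.38 over all genes and from -0.76 to 0.20 over the 41. The block called 0 genes. Depth limited Ppara and Acad10 most, at under 50 counts in every muscle.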

Other observations

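A few targets of the PPAR receptors outside the 41 genes differed far more between muscles of a group than between groups. They were picked after their values were seen. Pdk4, the kinase that shuts off pyruvate oxidation when fat is burned, had 13771, 3668 and 2209 counts in control and 13454, 4449 and 2324 in Yap-shRNA muscles. Ucp3, a mitochondrial carrier that rises with fatty acid supply, had 3098, 1476 and 1083 counts in control and 3067, 1551 and 986 in Yap-shRNA muscles. Angptl4, a secreted inhibitor of lipoprotein lipase, had 260, 30 and 36 counts in control and 221, 71 and 36 in Yap-shRNA muscles. Muscle number 1 was the high one of both groups for all 3 genes, and the log2 fold changes between groups were 0.085 (SE 0.72), 0.0038 (SE 0.45) and 0.048 (SE 0.83). Among the 41 genes, 8 also had their highest level in muscle number 1 of both groups (19.5%, against 12.7% of all genes): Cd36, Acsl1, Cpt1a, Cpt1b, Slc22a5, Acot2, Mgll and Lipe. Control 1 alone was the highest of its group for 29.3% of the 41 and Yap-shRNA 1 for 78.0%. An overlap of this size therefore needs no link between the groups.

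Of the 8 adipocyte markers measured, all but Fabp4 and Car3 were highest in Yap-shRNA 3, the muscle lowest for most of the 41 genes. Fasn, fatty acid synthase, had 192, 242 and 309 counts in control and 200, 336 and 704 in Yap-shRNA muscles. Cidec, a protein of large lipid droplets, had 35, 15 and 23 counts in control and 33, 23 and 107 in Yap-shRNA muscles, and it had the smallest p of the adipocyte markers (log2 fold change 1.15, SE 0.55). Without Yap-shRNA 3 it was 0.20, that of Fasn went from 0.71 to 0.081, that of Adipoq from 1.13 to -0.43, and the log2 fold change of Cfd went from 1.02 to -0.20. Fabp4, which endothelial cells of muscle express as well, had 3038, 3080 and 2690 counts in control and 2917, 2840 and 2573 in Yap-shRNA muscles.

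Other markers are given as values only. All 10 macrophage markers had fitted values above control, with a median log2 fold change of 0.34 and 0 at an unadjusted p under 0.05. Their sum was 238, 148 and 100 CPM in control and 172, 207 and 222 CPM in Yap-shRNA muscles, so control 1 was the highest muscle. Cd163 (0.55, SE 0.25) and Mrc1 (0.64, SE 0.30) had the smallest p. The treated muscles were all above the controls for 1 of the 10, Cd163, where 5.27% of all genes did not overlap. Of 10 muscle fibre markers 9 were below control, with a median log2 fold change of -0.059 over the 10, and with Pvalb at -0.14 (SE 0.11) and Tnnt3 at -0.13 (SE 0.11). Slow fibre markers were split, with 4 of 8 above control and 4 below, and a median log2 fold change of 0.029. Among them Myl2, the ventricular and slow myosin light chain, had 26, 33 and 15 counts in control and 39, 50 and 50 in Yap-shRNA muscles, with no overlap after scaling (0.88, SE 0.29, adjusted p = 1.00, edgeR quasi-likelihood test), and Tpm3 stood at 0.16 (SE 0.16). Of 8 endothelial markers 5 were above control and 3 below, with a median of 0.0051, and with Tek at 0.068 (SE 0.12) and Cdh5 at 0.047 (SE 0.11). Of 8 tendon and fibroblast markers 4 were above and 4 below, with a median of -0.005. Pdgfra stood at 0.11 (SE 0.25) and Col1a1 at 0.21 (SE 0.46). Neither the endothelial nor the tendon and fibroblast list had a gene at an unadjusted p under 0.05.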
